A study of Homo sapiens with 12 samples.

Results

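Interleukin-1 family signalling was followed at the RNA level in HL60 cells, a human acute myeloid leukaemia line, through 9 genes: the agonists IL1A, IL1B and IL18, the antagonist IL1RN, the decoy receptor IL1R2, the signalling receptor genes IL1R1 and IL1RAP, and the inflammasome genes CASP1 and NLRP3. The 9 genes were chosen by symbol from the 59251 genes of the count table, and all 9 were found there. The main comparison set the agonists against the antagonist and the decoy.

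Interleukin-1α, encoded by IL1A, and interleukin-1β, encoded by IL1B, bind the receptor encoded by IL1R1, which signals only once it pairs with the accessory protein encoded by IL1RAP. Signalling is restrained by the antagonist encoded by IL1RN, which occupies IL1R1 without recruiting IL1RAP, and by the decoy encoded by IL1R2, which binds ligand but lacks a signalling domain. The precursors of interleukin-1β and interleukin-18 are cleaved by caspase-1, the product of CASP1, which is activated on inflammasomes such as the one built on NLRP3, and these genes are best known from monocytes, macrophages and neutrophils.

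The study asked how inhibition of CDK4/6 combined with all-trans retinoic acid (ATRA), a vitamin A derivative that drives myeloid differentiation, affects leukaemia cells lacking the PML-RARA fusion. HL60 cells were cultured for 48 h without drug (non-treated), with 1 μM ATRA (ATRA), with 1 μM palbociclib, an inhibitor of the cell cycle kinases CDK4 and CDK6 (CDK4/6i), or with both drugs at these concentrations (CDK4/6i+ATRA). Each of the 4 groups had 3 libraries of total RNA, labelled as biological replicates. The study describes its analysis of these groups as resting on independent experiments. HL60 is a single line carried in culture, and no genotype differed between the groups.

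Total counts ran from 12230923 to 18679544 per library, and the 3 CDK4/6i+ATRA libraries were the shallowest, at 12230923 to 14415276. Levels are given as counts as deposited and as CPM, counts divided by the library's effective size, after scaling by the trimmed mean of M-values (TMM), whose factors were 0.840 to 0.893 in CDK4/6i+ATRA and 1.03 to 1.07 in the other libraries. Marker levels in this paragraph are an exception: their CPM were counts divided by the library's total counts, without TMM scaling. Of the 8 HL60 promyelocytic markers, 5 were detected and ELANE, PRTN3 and AZU1 had no count in any library. Each of those 3 genes is also listed on a further contig, and 66.3% of the 4468 genes listed on several contigs had no count against 51.5% of the 54783 others. The summed level of the 8 markers was 7154 to 7323 CPM in non-treated cells, 555.1 to 613.5 CPM under ATRA, 4189 to 4236 CPM under CDK4/6i and 210.0 to 232.2 CPM under CDK4/6i+ATRA. In non-treated cells most of that sum was MPO, at 6643 to 6828 CPM. Under CDK4/6i+ATRA MPO was at 21.0 to 28.4 CPM, below CSF3R (94.4 to 105.8 CPM) and CD33 (83.6 to 87.7 CPM). CTSG was lower in every treated library than in any non-treated one. Not all markers followed: CSF3R was at 38.2 to 43.3 CPM in non-treated cells and 101.3 to 104.9 CPM under ATRA, and under CDK4/6i CD33 (121.7 to 126.3 CPM) and MYB (375.7 to 395.8 CPM) lay above their non-treated levels of 95.2 to 101.4 and 344.7 to 359.7 CPM. The part of these marker differences in the results below was not tested. The 3 erythroid markers were at 0 in every library, and the 3 markers each of epithelial cells, fibroblasts and endothelial cells summed to at most 0.325 CPM. T cell markers summed to 0.491 to 3.27 CPM and B cell markers, mainly CD79A, to 11.2 to 26.6 CPM. Without TMM scaling, as given here, the sums of both were lowest in CDK4/6i+ATRA.

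Promoter sequence is shown for IL1A, IL1B and IL1RN, whose RNA was highest in CDK4/6i+ATRA, and for the decoy IL1R2, which was all but undetected. RefSeq promoter windows on GRCh38.p14 were available for 7 of the 9 genes. Each window below holds the 250 bases before an annotated start, written 5′ to 3′ on the gene's own strand, and contains no exon base of its gene in the count table. IL1A, IL1R2 and IL1RN have further windows in the table that are not shown. Capitals mark matches, on either strand, to TATAAA (core of the box of that name, found in 10.7% of the 35116 windows of this length), TGANTCA (AP-1, 6.6%), GAGGAA (ETS/PU.1-type, 23.6%), TTNNGNAA (C/EBP, 33.2%) and the NF-κB consensus (10.0%), where N is any base.
IL1A promoter, chr2:112784494-112784743, minus strand: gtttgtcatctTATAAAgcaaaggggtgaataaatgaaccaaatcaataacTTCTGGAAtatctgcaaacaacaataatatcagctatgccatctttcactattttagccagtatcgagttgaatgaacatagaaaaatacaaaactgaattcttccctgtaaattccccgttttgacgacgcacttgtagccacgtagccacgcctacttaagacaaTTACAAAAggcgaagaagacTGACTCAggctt
IL1B promoter, chr2:112836780-112837029, minus strand: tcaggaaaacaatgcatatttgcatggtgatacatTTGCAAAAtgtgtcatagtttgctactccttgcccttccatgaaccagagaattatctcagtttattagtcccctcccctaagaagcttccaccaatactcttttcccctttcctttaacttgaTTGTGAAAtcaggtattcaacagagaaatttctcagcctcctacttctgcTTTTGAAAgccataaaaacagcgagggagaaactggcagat
IL1RN promoter, chr2:113127239-113127488, plus strand: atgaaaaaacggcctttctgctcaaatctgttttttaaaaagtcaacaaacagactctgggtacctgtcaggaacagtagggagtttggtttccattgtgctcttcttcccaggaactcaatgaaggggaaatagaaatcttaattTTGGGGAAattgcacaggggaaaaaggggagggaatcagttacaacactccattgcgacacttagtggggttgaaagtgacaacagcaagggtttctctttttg
IL1R2 promoter, chr2:101991710-101991959, plus strand: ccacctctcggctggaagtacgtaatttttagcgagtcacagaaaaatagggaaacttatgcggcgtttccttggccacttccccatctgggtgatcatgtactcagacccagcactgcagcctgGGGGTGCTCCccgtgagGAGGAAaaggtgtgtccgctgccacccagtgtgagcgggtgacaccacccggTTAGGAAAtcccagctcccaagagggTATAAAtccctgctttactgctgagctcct

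On hg38, as the count table lists them, IL1A (chr2:112773925-112784493, minus strand), IL1B (chr2:112829751-112836779, minus) and IL1RN (chr2:113099360-113134014, plus) lie within one cluster of family genes on chromosome 2, and IL1R2 (chr2:101991960-102028544, plus) and IL1R1 (chr2:102070390-102179874, plus) are neighbours in another. IL18 (chr11:112143260-112164094, minus) and CASP1 (chr11:105025443-105036686, minus) lie on chromosome 11, IL1RAP (chr3:190514085-190659750, plus) on chromosome 3 and NLRP3 (chr1:247416077-247448817, plus) on chromosome 1. The length the table gives for each gene is 1136 bases in IL18 and 38753 bases in IL1RAP, so levels of different genes are compared below per kb only.

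The IL1A window held a TATAAA starting 239 bases before the start, an AP-1 match 12 bases before it, and C/EBP matches 199 and 32 bases before it. The IL1B window held C/EBP matches 215, 91 and 41 bases before the start and no other motif searched. In the IL1RN window the only match was to C/EBP, 104 bases before the start, while the IL1RN windows not shown held an AP-1 match in one and TATAAA and C/EBP matches in the other. The IL1R2 window held the NF-κB consensus at 125 bases, an ETS/PU.1-type match at 108, a C/EBP match at 56 and TATAAA at 30 bases before the start. A match describes the letters of the window and does not show a bound site.

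The agonist genes rose with each drug and rose most with both. IL1B had 66, 71 and 80 counts in non-treated cells, 1195, 961 and 1038 under ATRA, 284, 217 and 240 under CDK4/6i, and 15727, 15855 and 18143 under CDK4/6i+ATRA. No group overlapped another. In TMM-scaled units IL1B went from 4.31 ± 0.297 CPM in non-treated cells to 62.3 ± 9.81 under ATRA, 14.01 ± 0.734 under CDK4/6i and 1451 ± 43.8 under CDK4/6i+ATRA (mean ± SD, n = 3 in each). The log2 fold change against non-treated cells was 3.85 (95% interval 3.65 to 4.04) under ATRA, 1.70 (1.45 to 1.96) under CDK4/6i and 8.39 (8.24 to 8.55) under CDK4/6i+ATRA, with adjusted p of 9.69e-36, 2.15e-16 and 6.65e-55 in edgeR's quasi-likelihood test. Since these are bulk libraries, a change in the number of cells expressing a gene and a change in its RNA per cell cannot be told apart. Ranked by CPM per kb among the 13318 genes tested, IL1B moved from position 7785 in non-treated cells to 1523 under ATRA, 4856 under CDK4/6i and 99 under CDK4/6i+ATRA.

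IL1A, the gene of the agonist that is active without cleavage by caspase-1, started near the detection limit. It had 6, 1 and 5 counts in non-treated cells, 199, 171 and 168 under ATRA, 24, 18 and 41 under CDK4/6i, and 2589, 2617 and 2930 under CDK4/6i+ATRA. Here too the 4 groups were fully separated. Mean levels were 0.235 ± 0.154 CPM in non-treated cells, 10.5 ± 1.56 under ATRA, 1.58 ± 0.712 under CDK4/6i and 237.6 ± 4.43 under CDK4/6i+ATRA (SD, n = 3). The log2 fold changes were 5.41 (4.91 to 5.91) under ATRA, 2.68 (1.88 to 3.49) under CDK4/6i and 9.91 (9.65 to 10.18) under CDK4/6i+ATRA, all past the threshold of an adjusted p of 0.05 (6.26e-25, 1.1e-07 and 3.01e-48, edgeR). With 12 counts in the 3 non-treated libraries together, the baseline of these folds was poorly determined, whereas the step from ATRA to CDK4/6i+ATRA, a log2 difference of 4.50 (4.36 to 4.65), rested on 168 or more counts in every library.

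IL18, which encodes the other caspase-1-dependent agonist, changed far less. Its counts were 331, 274 and 327 in non-treated cells, 585, 669 and 596 under ATRA, 584, 520 and 507 under CDK4/6i, and 679, 761 and 818 under CDK4/6i+ATRA. After scaling this gave 18.5 ± 1.36 CPM in non-treated cells, 36.0 ± 3.04 under ATRA, 30.6 ± 1.08 under CDK4/6i and 65.9 ± 3.17 under CDK4/6i+ATRA (SD, n = 3), and every treated library lay above every non-treated one. The log2 fold changes were 0.96 (SE 0.0734, adjusted p = 2.08e-16), 0.72 (SE 0.0748, adjusted p = 8.03e-12) and 1.83 (SE 0.0713, adjusted p = 2.1e-28) by edgeR. In non-treated cells IL18 was the highest of the 3 agonists per unit length, at 16.3 CPM per kb against 2.49 for IL1B and 0.112 for IL1A. In CDK4/6i+ATRA the order was IL1B at 838.0, IL1A at 113.0 and IL18 at 58.0 CPM per kb.

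**Figure D1:**
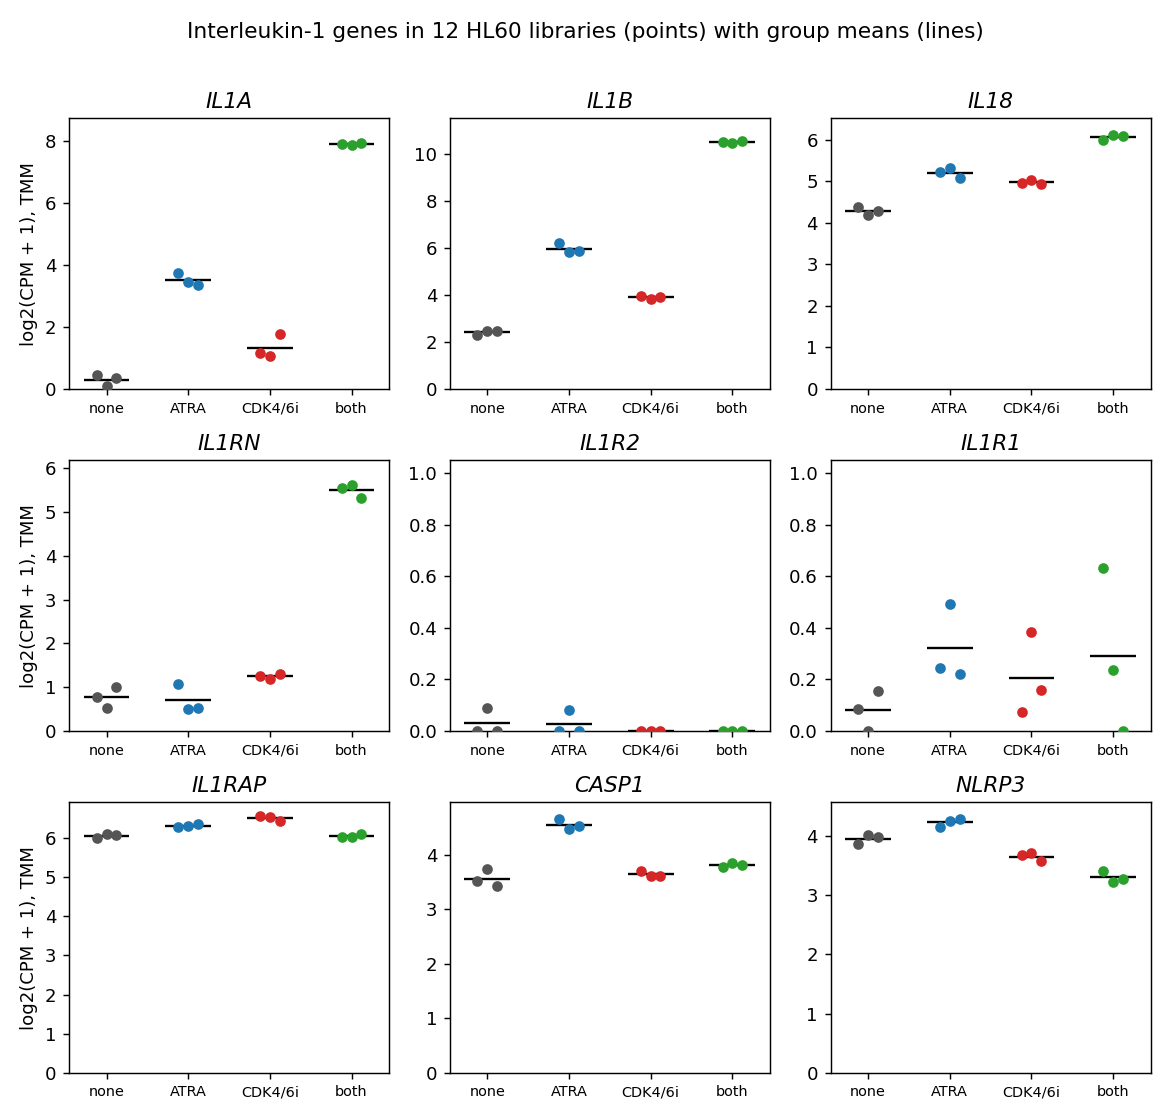
Levels of the 9 genes in each of the 12 libraries, as log2(CPM + 1) after TMM scaling (y axis), by treatment (x axis; none is non-treated, both is CDK4/6i+ATRA), with points for libraries and lines for group means. IL1A, IL1B, IL18 and IL1RN were highest in all 3 CDK4/6i+ATRA libraries, NLRP3 was lowest there, and IL1R2 and IL1R1 stayed below 1 on this scale in every library.

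IL1RN, the gene of the receptor antagonist, differed from the agonists in that ATRA alone did not raise it detectably. It had 12, 7 and 18 counts in non-treated cells, 18, 7 and 8 under ATRA, 27, 21 and 25 under CDK4/6i, and 499, 543 and 468 under CDK4/6i+ATRA. The non-treated and ATRA libraries overlapped, the CDK4/6i libraries lay above both, and the CDK4/6i+ATRA libraries lay far above all others. Mean levels were 0.725 ± 0.287, 0.653 ± 0.395, 1.38 ± 0.0911 and 44.3 ± 5.03 CPM in the same order (SD, n = 3). The log2 fold change under ATRA was -0.19 (95% interval -0.97 to 0.58, adjusted p = 0.673, edgeR), an interval that still allows a rise of 0.58, and its sign changed without any one of 3 libraries (non-treated replicate 3, 0.13; ATRA replicate 2, 0.045; ATRA replicate 3, 0.028). With CDK4/6i it was 0.91 (0.26 to 1.55, adjusted p = 0.0141), a call that was lost without non-treated replicate 2 (0.66, adjusted p = 0.0997, edgeR). With CDK4/6i+ATRA it was 5.90 (5.54 to 6.25, adjusted p = 2.77e-33), which was 4.99 (4.68 to 5.30) above CDK4/6i and 6.09 (5.73 to 6.45) above ATRA on the log2 scale.

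IL1R2, the gene of the decoy receptor, was all but undetected. Only 2 counts were found in the 12 libraries, 1 in non-treated replicate 2 and 1 in ATRA replicate 2, and the gene was not tested. A count of 0 allows up to 3 counts, which corresponds to 0.156 to 0.275 CPM depending on the library and covers counting error only. With IL1R2 set to 3 counts, the ratio of IL1B to IL1R2 counts per kb was at least 48.5 to 58.8 in the non-treated libraries, 706.1 to 878.1 under ATRA, 159.5 to 208.7 under CDK4/6i and 11556 to 13331 under CDK4/6i+ATRA. These bounds follow the IL1B counts and say nothing of a change in IL1R2.

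The balance of agonist and antagonist was taken as the ratio of IL1B to IL1RN counts per kb within a library, with 0.5 counts added to each, a quantity that does not depend on scaling between libraries. It was 8.56, 15.3 and 7.004 in the non-treated libraries, 104.0, 206.4 and 196.7 under ATRA, 16.7, 16.3 and 15.2 under CDK4/6i, and 50.7, 47.0 and 62.3 under CDK4/6i+ATRA. The ATRA libraries held the highest ratios and the CDK4/6i+ATRA libraries came next, while the CDK4/6i libraries overlapped the upper end of the non-treated ones. Geometric means were 9.73, 161.6, 16.0 and 52.9 in that order. The groups differed (exact permutation test over all 369600 partitions of the 12 libraries, p = 1.3e-04, 2.6e-04 after Benjamini-Hochberg adjustment over 2 ratios).

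Between pairs of groups the log2 ratio was higher by 4.05 (SE 0.465) under ATRA than in non-treated cells, by 2.44 (SE 0.361) under CDK4/6i+ATRA than in non-treated cells, and by 1.72 (SE 0.129) when ATRA was added to CDK4/6i. From ATRA to CDK4/6i+ATRA it fell by 1.61 (SE 0.341), so that both IL1B and IL1RN were higher with both drugs but IL1RN by the larger step. Each of these pairs, and ATRA against CDK4/6i at 3.33 (SE 0.321), was fully separated, with the smallest p that an exact permutation test of 3 against 3 can give, 0.1 two-sided (0.12 after adjustment over 12 pairs). This test cannot take a pair of 3 against 3 below that value. CDK4/6i exceeded non-treated cells by 0.72 (SE 0.342), with p = 0.2 in the same exact test.

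IL18 and IL18BP, the gene of the secreted protein that binds and neutralises interleukin-18, gave a second ratio of agonist to inhibitor, chosen after the values had been seen. It was 19.7, 20.8 and 14.4 in non-treated cells, 15.9, 15.2 and 15.6 under ATRA, 13.9, 14.4 and 12.3 under CDK4/6i, and 11.30, 12.05 and 12.24 under CDK4/6i+ATRA. The ratio was thus lowest in CDK4/6i+ATRA, although 1 non-treated library lay below every ATRA library and level with the highest CDK4/6i library. Across the groups the exact permutation p was 0.00701, with 0.035 when CDK4/6i+ATRA replicate 1 was left out and 6.5e-05 when non-treated replicate 3 was. The CDK4/6i+ATRA mean lay 0.61 (SE 0.170) below the non-treated mean on the log2 scale (exact p = 0.1, the smallest possible). ATRA and non-treated cells differed by -0.22 (SE 0.167, exact p = 0.4).

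**Figure D2:**
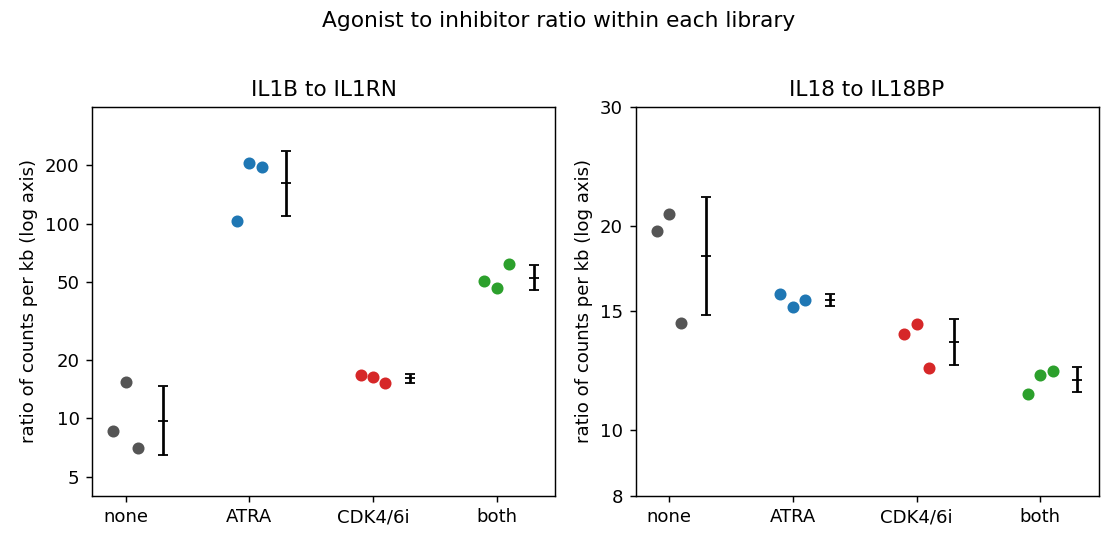
Ratio of counts per kb within each library (y axis, log scale) for IL1B to IL1RN (left) and IL18 to IL18BP (right) by treatment (x axis); points are libraries, and bars show the geometric mean with 1 SD of the log2 ratio (n = 3). The IL1B to IL1RN ratio was 104.0 to 206.4 under ATRA, 47.0 to 62.3 under CDK4/6i+ATRA and 7.004 to 16.7 in the other libraries, whereas the IL18 to IL18BP ratio ran only from 11.3 to 20.8.

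Of the signalling receptor genes, IL1R1 had at most 7 counts in any library and IL1RAP was detected in all 12. IL1R1 had 1, 0 and 2 counts in non-treated cells, 3, 7 and 3 under ATRA, 1, 5 and 2 under CDK4/6i, and 6, 2 and 0 under CDK4/6i+ATRA. With 32 counts in all it was not tested. The ATRA libraries lay above the non-treated ones, at 0.166 to 0.408 against 0 to 0.113 CPM, all near the detection limit. The CDK4/6i and CDK4/6i+ATRA libraries overlapped the non-treated ones. An opposite-strand neighbour, IL1R1-AS1, shares 11 exon bases with it and had no count.

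IL1RAP, the accessory protein gene, was readily detected, with 1052, 1080 and 1169 counts in non-treated cells, 1252, 1342 and 1452 under ATRA, 1785, 1506 and 1449 under CDK4/6i, and 702, 724 and 816 under CDK4/6i+ATRA. After scaling it was higher in every single-drug library than in any non-treated or CDK4/6i+ATRA library, at 65.6 ± 2.26, 78.5 ± 1.55, 89.8 ± 4.34 and 65.4 ± 1.73 CPM in the same order (SD, n = 3). It rose by 0.26 (SE 0.0481, adjusted p = 5.11e-06) under ATRA and by 0.45 (SE 0.0474, adjusted p = 1.08e-11) under CDK4/6i on the log2 scale of edgeR. With both drugs the log2 difference from non-treated cells was -0.0025 (-0.11 to 0.10, adjusted p = 0.967). Scaling by library size alone, which shifts the median of all genes in that comparison to -0.25, gave -0.27 (adjusted p = 1.49e-05, edgeR), close to that shift. IL1RAP was below CDK4/6i by 0.46 (SE 0.04997) and below ATRA by 0.26 (SE 0.0507) in CDK4/6i+ATRA.

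Of the inflammasome genes, CASP1 rose mainly under ATRA. Its counts were 175, 196 and 172 in non-treated cells, 394, 365 and 398 under ATRA, 233, 183 and 191 under CDK4/6i, and 138, 150 and 158 under CDK4/6i+ATRA. In CPM this was 10.8 ± 1.33, 22.5 ± 1.57, 11.48 ± 0.521 and 13.0 ± 0.362 (SD, n = 3), with the ATRA libraries well above the rest and the CDK4/6i+ATRA libraries just above the other groups. The log2 fold change was 1.06 (0.87 to 1.25, adjusted p = 5.76e-14) under ATRA, 0.09 (-0.12 to 0.30, adjusted p = 0.485) under CDK4/6i and 0.27 (0.05 to 0.49, adjusted p = 0.0232) under CDK4/6i+ATRA in edgeR. That last call was lost under scaling by library size alone (0.0040), with no filter on low counts (0.16), and without non-treated replicate 1 (0.24), non-treated replicate 3 (0.18) or CDK4/6i+ATRA replicate 2 (0.25). CASP1 was lower with both drugs than under ATRA by 0.79 (SE 0.0995, adjusted p = 1.13e-09, edgeR). CASP1 lies beside its paralog CARD16 on chromosome 11, and reads shared by similar sequence cannot be assigned with certainty.

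NLRP3, which encodes the sensor that assembles one inflammasome, moved the other way with both drugs. It had 225, 243 and 264 counts in non-treated cells, 271, 309 and 337 under ATRA, 227, 198 and 186 under CDK4/6i, and 105, 93 and 105 under CDK4/6i+ATRA. All 3 CDK4/6i+ATRA libraries lay below all others after scaling, at 8.86 ± 0.686 CPM against 14.5 ± 0.903 in non-treated cells, 17.8 ± 0.980 under ATRA and 11.6 ± 0.629 under CDK4/6i (SD, n = 3). The log2 fold change was 0.29 (SE 0.0929, adjusted p = 0.00511) under ATRA, -0.33 (SE 0.0984, adjusted p = 0.00389) under CDK4/6i and -0.72 (SE 0.112, adjusted p = 1.35e-07) under CDK4/6i+ATRA by edgeR. NLRP3 is also listed on a further contig of the table's annotation.

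**Figure D3:**
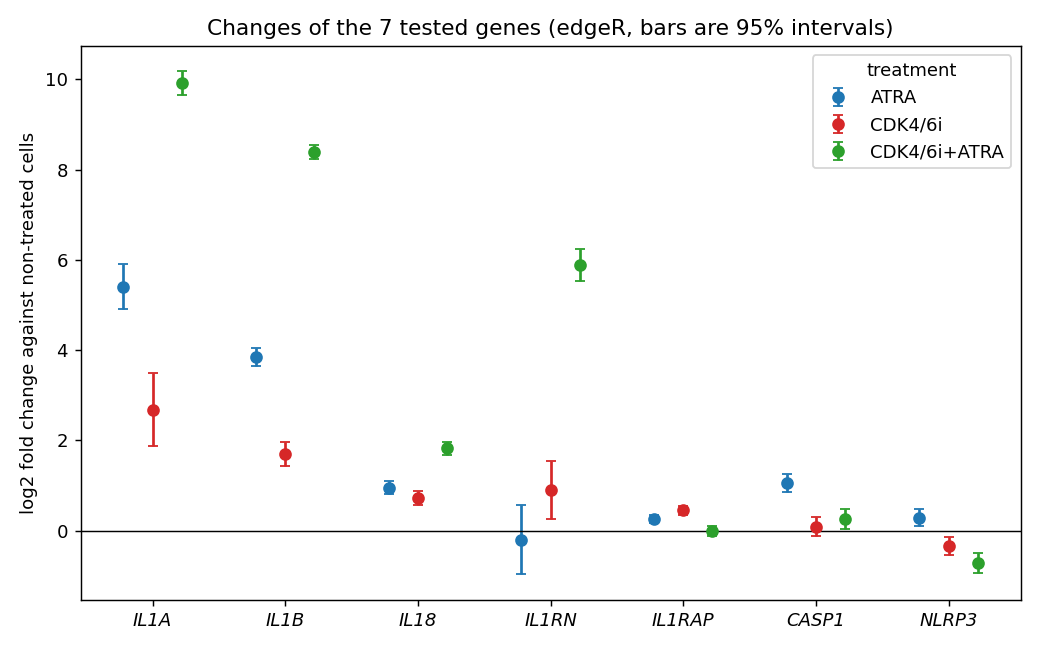
Log2 fold change against non-treated cells (y axis) for the 7 tested genes (x axis) under ATRA, CDK4/6i and CDK4/6i+ATRA, from 1 edgeR fit of 12 libraries; bars are 95% intervals. With CDK4/6i+ATRA the values ran from 9.91 for IL1A and 8.39 for IL1B through 5.90 for IL1RN and 1.83 for IL18 to -0.72 for NLRP3, while the bar of IL1RN under ATRA spans 0.

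Over the 9 genes, 7 passed the filter on low counts and IL1R1 and IL1R2 did not. IL1A and IL1RN had few counts in non-treated cells and passed through the treated groups, so the counts that follow are descriptions. Under ATRA 6 of the 7 were called, all higher, where 67.6% of all 13318 genes were called, 32.1% higher and 35.5% lower. Under CDK4/6i 5 were higher and 1 lower, where 56.2% of all genes were called, 28.3% higher and 27.9% lower. Under CDK4/6i+ATRA 5 were higher and 1 lower, where 81.7% were called, 41% higher and 40.7% lower. Scaling by library size alone moved the share of higher calls among all calls in this comparison from 50.2% to 40.5%. The share called without regard to direction was near the background with both drugs. Calls of at least 2-fold higher were IL1A, IL1B and CASP1 under ATRA (12.9% of all genes), IL1A and IL1B under CDK4/6i (5.56%), and IL1A, IL1B, IL18 and IL1RN under CDK4/6i+ATRA (22.3%). The median log2 fold change of the 7 was 0.96, 0.72 and 1.83 in that order, against -0.028, 0.020 and 0.018 over all genes. All 3 of these comparisons were made against the same non-treated libraries. Against CDK4/6i alone, CDK4/6i+ATRA raised 4 of the 7 and lowered 2, where 78.6% of all genes were called, 39.1% higher and 39.5% lower. Against ATRA alone it raised 4 and lowered 3, where 69.8% were called, 36.9% higher and 32.8% lower. Scaling by library size alone moved the share of higher calls among all calls from 49.8% to 36.7% in the former of these comparisons and from 53.0% to 31.6% in the latter. ATRA was above CDK4/6i for 5 of the 7 and below it for IL1RN, by 1.10 (SE 0.3295), and IL1RAP, by 0.19 (SE 0.0463), where 70.8% of all genes were called, 35.2% higher and 35.6% lower.

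All 3 CDK4/6i+ATRA libraries lay above the other 9 libraries for IL1A, IL1B, IL18 and IL1RN, as for 28.3% of all tested genes, and below them for NLRP3, as for 25.7%. Whether the effect of ATRA depended on CDK4/6i was tested as an interaction, the log2 effect of ATRA in the presence of CDK4/6i minus that in its absence. It was called for 6 of the 7 genes, 3 positive and 3 negative, where 51.4% of all genes were called, 24.5% positive and 27% negative. Under scaling by library size alone the positive share of all calls moved from 47.5% to 18.5%. IL1RN had the largest positive term at 5.18 (4.22 to 6.14, adjusted p = 2.82e-13), followed by IL1B at 2.84 (2.50 to 3.18, adjusted p = 6.44e-20), both in edgeR. The term of IL1A was 1.82 (0.62 to 3.02, adjusted p = 0.00877) and it fell short of the threshold once non-treated replicate 1 (1.41, adjusted p = 0.155) or 3 (1.67, adjusted p = 0.0646) was left out. For IL18 it was 0.15 (-0.05 to 0.35, adjusted p = 0.211), so a departure from adding the 2 log2 effects was not detected. It was negative for CASP1 at -0.88 (SE 0.145), IL1RAP at -0.72 (SE 0.0694) and NLRP3 at -0.68 (SE 0.148).

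Genes whose level followed IL1B most closely were sought among 9293 tested genes with a mean of at least 5 CPM, by Pearson's r of log2(CPM + 1) over the 12 libraries. They were SPI1, the gene of the myeloid transcription factor PU.1 (r = 0.999), PKM, encoding a pyruvate kinase, and SGPL1, CIC and SGK1 (all r = 0.998). SPI1 ran from 301.8 CPM in non-treated cells to 463.4 under ATRA, 361.6 under CDK4/6i and 855.1 under CDK4/6i+ATRA, the same order as IL1B over a much smaller range. For IL1RN the closest were NAMPT (r = 0.994), which encodes an enzyme of NAD synthesis, RNF187 (0.994), ARRDC4 (0.993), CUX1 (0.993) and PIM3 (0.992). NAMPT was at 159.3, 154.9, 207.2 and 803.9 CPM in the same order of groups, with no rise on ATRA, as for IL1RN. These values describe points that fall into 4 treatment groups and share libraries, and for IL1R2 no such list was made because it had 2 counts.

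Of 47 further genes of the pathway, 31 were tested. Against non-treated cells 25 were higher and 3 lower under ATRA (median log2 fold change 0.81, against -0.028 over all genes), where 32.1% of all genes were higher and 35.5% lower. Under CDK4/6i 12 were higher and 7 lower (median 0.18, against 0.020), where 28.3% and 27.9% of all genes were. Under CDK4/6i+ATRA 25 were higher and 4 lower (median 1.36, against 0.018), where 41% and 40.7% were. AIM2, IRAK2 and NLRP12 had few counts in non-treated cells and passed the filter on low counts through treated groups, so these counts too are descriptions. The other 7 ligands of the family, IL33, IL36A, IL36B, IL36G, IL36RN, IL37 and IL1F10, had at most 5 counts each over all libraries and were not tested.

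The list of other receptors and the binding protein IL18BP held 8 genes, of which 5 were tested. All 5 were called higher under ATRA, under CDK4/6i and with both drugs, where 32.1%, 28.3% and 41% of all genes were. The interleukin-18 receptor pair rose under ATRA: IL18R1 went from 10.9 ± 0.419 to 83.4 ± 6.05 CPM and IL18RAP from 1.65 ± 0.117 to 36.4 ± 3.67 CPM (SD, n = 3). With both drugs IL18R1 was at 88.7 ± 4.70 CPM, 0.09 (SE 0.0553, adjusted p = 0.144, edgeR) above ATRA on the log2 scale, and IL18RAP at 25.8 ± 2.32 CPM, below ATRA by 0.49 (SE 0.0851, adjusted p = 1.43e-06, edgeR). Under scaling by library size alone IL18R1 was called lower than under ATRA (-0.22, adjusted p = 0.00157, edgeR), while the median of all genes in that comparison was -0.26. IL18BP rose from 5.06 ± 1.13 CPM to 27.2 ± 0.325 CPM with both drugs, a log2 fold change of 2.41, alongside its ligand.

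All 14 receptor signalling genes were tested, and under CDK4/6i+ATRA 10 were higher and 3 lower, where 81.7% of all genes were called, 41% higher and 40.7% lower. The 3 lower genes, named after their values were seen, were IRAK1, a kinase of the receptor complex (log2 fold change -0.36), IRAK3, a member of the kinase family that restrains signalling (log2 fold change -0.50), and TAB1, an adaptor of the kinase TAK1 (log2 fold change -0.996). Under CDK4/6i alone the same list had 2 higher and 4 lower genes and a median log2 fold change of -0.057, where 28.3% of all genes were higher and 27.9% lower. MYD88, the adaptor that links the receptors to the IRAK kinases, rose from 10.1 ± 1.35 CPM to 66.5 ± 2.17 under ATRA, 28.5 ± 0.709 under CDK4/6i and 162.8 ± 4.36 with both (SD, n = 3). IRAK2, a kinase-like member of that complex, had 3, 0 and 1 counts in non-treated cells and 225, 235 and 249 with both drugs, at least 116-fold higher when the non-treated libraries are set to 3 counts each. The ubiquitin ligase genes PELI3 and PELI2 rose with both drugs by 3.09 and 3.00 on the log2 scale, and TAB2, an adaptor of the kinase TAK1, by 1.54.

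Of the 18 other inflammasome and pyroptosis genes, 12 were tested, and 10 were higher and 1 lower with both drugs, where 81.7% of all genes were called, 41% higher and 40.7% lower. Among sensor genes AIM2, NLRC4 and NLRP12 rose, NLRP1 was not called (9, 10 and 0 counts with both drugs, log2 fold change 1.33, adjusted p = 0.0758, edgeR), and MEFV had too few counts to be tested. NAIP had 1 count and is listed on 3 further contigs, so its level could not be read. Under CDK4/6i alone 5 of the 12 were higher and 3 lower, with a median log2 fold change of 0.23, where 28.3% of all genes were higher and 27.9% lower. AIM2, a sensor of cytosolic DNA, had 2, 3 and 4 counts in non-treated cells, 297, 297 and 247 under ATRA, 35, 20 and 22 under CDK4/6i, and 611, 602 and 708 with both, a log2 fold change of 8.23 in the last group. With both drugs NLRC4 rose by 6.10, from 1.01 ± 0.168 to 70.3 ± 1.72 CPM, and under ATRA alone it was at 26.1 ± 2.36 CPM. NLRP12 rose by 4.83, from 0.378 ± 0.194 to 10.97 ± 0.542 CPM, and was already at 9.03 ± 0.508 CPM under ATRA. NINJ1, which encodes a protein of plasma membrane rupture, rose by 2.66 with both drugs and by 1.83 under ATRA. CARD8 rose by 1.48 with both drugs and by 0.79 under ATRA. P2RX7, the gene of an ATP-gated channel that can trigger NLRP3, fell from 32, 31 and 29 counts to 0, 2 and 3 under ATRA, at least 10.5-fold lower, and was at 8, 14 and 12 under CDK4/6i and at 0, 3 and 5 with both. The log2 fold change with both drugs was -2.93, and it was -2.39 without CDK4/6i+ATRA replicate 1 and -3.68 without CDK4/6i+ATRA replicate 3. GSDMD, the gene of the pore protein cut by caspase-1, had no count in any library and is listed on a further contig of the annotation, so its level could not be read from these counts.

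**Figure D4:**
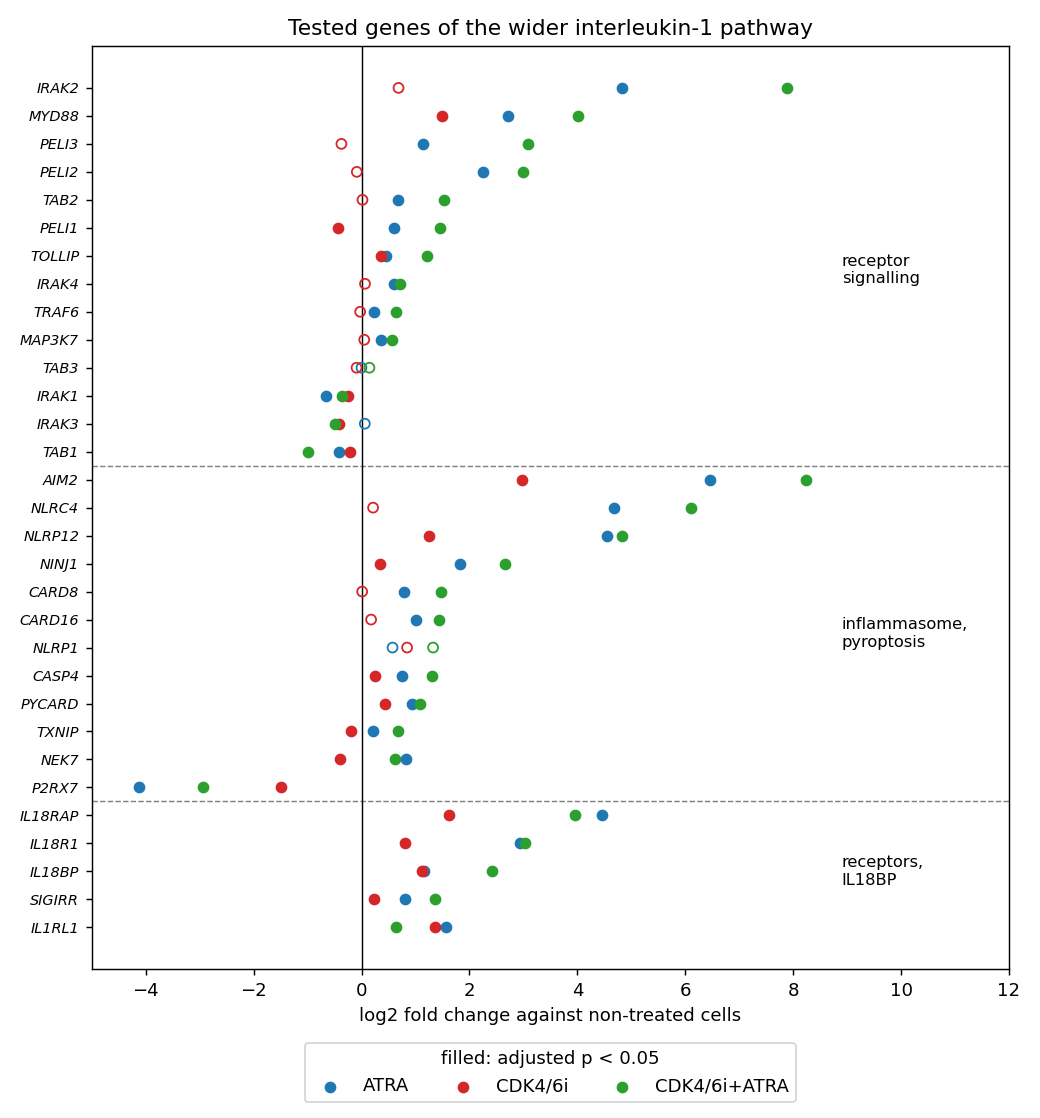
Log2 fold change against non-treated cells (x axis) of the 31 tested pathway genes beside the 9 above (y axis, grouped by role) under ATRA, CDK4/6i and CDK4/6i+ATRA; filled points have an adjusted p under 0.05 in edgeR and open points do not. AIM2 at 8.23 was farthest to the right with both drugs and P2RX7 farthest to the left, and the points of IRAK2, whose non-treated libraries were at the detection limit, and of P2RX7 under ATRA are fitted values and not bounds.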

How the data were processed

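Total RNA of 12 HL60 libraries was sequenced by the authors after directional library preparation. Per the labels and the study's methods, reads were trimmed with Trimmomatic 0.33 and aligned to hg38 with STAR 2.7.11a, and the methods name RSEM for raw gene counts on RefSeq genes. The deposited table holds whole-number counts per gene with exon intervals, strand and length, a layout other than RSEM's gene table. Which counter made it, whether strand was used and how reads mapping to several places were treated are not given in the sources used here, and counts and per-kb values of genes with near-identical copies or listed on several contigs are limited by this. Column names gave each library its group.

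Counts were tested with edgeR 4.0.16 (R 4.3.3): TMM scaling to CPM, the default filter on low counts for 4 groups (13318 of 59251 genes kept), 1 quasi-likelihood fit of 4 group means (8 residual degrees of freedom), and Benjamini-Hochberg adjustment over all tested genes, with 0.05 as the threshold. The common coefficient of biological variation in edgeR, 1 value for all genes that leaves out counting error, was 3.70%. Ratios were tested by exact permutation over libraries. Alternatives were DESeq2 1.42.0, other scalings and filters, a replicate block, and each library left out. The scripts were tested on simulated data.

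The genes described were all 9 members, the 14 pathway genes with the largest called change of at least 2-fold with both drugs, and the 5 genes most like IL1B and IL1RN. A few further list genes, among them IRAK1, IRAK3, TAB1 and NLRP1, were named after their values were seen. The members and lists were chosen with earlier results of these data known. A group with at most 3 counts in each library was treated as at the detection limit. Ratios to IL1R2 were not tested because it had 2 counts.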

Additional observations from a re-analysis of the deposited data

Results flagged for a closer look

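The effect of ATRA in the presence of CDK4/6i was compared with its effect alone for 21 genes, the 7 tested members and 14 further pathway genes. The interaction term of the edgeR fit was called for 17 of them at an adjusted p under 0.05, where 51.4% of all 13318 genes were called. Of the 21 genes, 14 had been selected for a large change with both drugs. Among the interleukin-1 family genes the difference of log2 effects was 5.18 for IL1RN, 2.84 for IL1B and 1.82 for IL1A, and it was -0.88 for CASP1, -0.72 for IL1RAP and -0.68 for NLRP3. IL1RN had no detectable response to ATRA alone and a log2 response of 4.99 when CDK4/6i was present. NLRP3 and IL1RAP changed direction, from 0.29 and 0.26 with ATRA alone to -0.39 and -0.46 with ATRA added to CDK4/6i.

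In the wider pathway the difference was positive for PELI3 (2.34), NLRC4 (1.22), TAB2 (0.85), PELI2 (0.84), CARD8 (0.68) and NINJ1 (0.49). It was negative for the interleukin-18 receptor genes IL18RAP (-2.12) and IL18R1 (-0.72), for AIM2 (-1.20) and for NLRP12 (-0.97). P2RX7 gave 2.69, with the ATRA libraries at 0, 2 and 3 counts, so that this value depends on how low counts are treated. The AIM2 term was not called without non-treated replicate 1 (-0.998) or 2 (-1.24) or CDK4/6i replicate 1 (-0.98). The NLRP12 term was not called under the replicate block (-0.97, adjusted p = 0.0504), without a filter (-1.06, adjusted p = 0.0523) or without any one of 7 libraries. The P2RX7 term was not called without ATRA replicate 1 (2.16) or CDK4/6i+ATRA replicate 2 (2.58) or 3 (1.94). Other calls were gained. The MYD88 term, not called in the main fit, was called in edgeR with DESeq2's size factors (-0.23) and with library size alone (-0.52). It was also called without a filter (-0.29) and without non-treated replicate 2 (-0.30). The IRAK2 term was called by DESeq2 (2.31) and without non-treated replicate 2 (2.88) or CDK4/6i replicate 1 (3.43).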

How the results depend on the processing

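Under every alternative run, the number of genes called stayed within 1.5 times that reported in each of the 7 comparisons, and the same held for the number of members called. The IL1B to IL1RN ratio kept its direction under a prior of 1 count, without division by length, and with IL1A added to IL1B. Alternatives for the ratios of IL1B and of IL1R1 to IL1R2 were not run, since IL1R2 was at the detection limit in every group. Same-numbered replicates did not deviate together (r -0.175 to 0.101, median -0.012, 18 pairs), so numbers were not taken as pairs. A replicate block gave 8915, 7392, 10824, 10416, 9213, 9347 and 6775 genes called against 9006, 7482, 10885, 10473, 9291, 9433 and 6852, in the order ATRA, CDK4/6i and both against non-treated, both against CDK4/6i, both against ATRA, ATRA against CDK4/6i, and interaction. It called the same number of members, and the call it removed among the genes described was the NLRP12 interaction (-0.97, adjusted p = 0.0504).

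Values near 0 changed sign. IL1RAP with both drugs against none was 0.015 with DESeq2's size factors and with DESeq2, and 0.030 when 10 counts were required of each library, under which IL1A and IL1RN were not tested. Library size alone gave -0.098 for CASP1 with both drugs against CDK4/6i, -0.026 for NLRP12 and -0.22 for IL18R1 with both against ATRA, and interactions of -0.17 for IL18 and -0.17 for IL18BP; without a filter IL18R1 gave -0.0037. That scaling moved the median of all genes to -0.25, -0.28, -0.26 and -0.34 for both drugs against none, CDK4/6i and ATRA and for the interaction. The cause of these changes was not tested.

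Leaving out each library in turn gave ranges of -0.78 to 0.13 for IL1RN with ATRA and -0.036 to 0.0098 for IL1RAP with both drugs. Against non-treated cells CDK4/6i gave -0.020 to 0.036 for CARD8, -0.19 to 0.027 for PELI2, -0.37 to 1.90 for IRAK2, -0.11 to 0.38 for NLRC4 and -0.0077 to 0.035 for TAB2. IL18BP ranged from -0.051 to 0.093 for ATRA against CDK4/6i and from -0.048 to 0.28 for the interaction. The NLRP12 interaction was also not called when any of 7 libraries was left out or without the filter.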
